A study of Mus musculus with 12 samples.

Results

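Guanylate-binding proteins (GBPs) and immunity-related GTPases (IRGs) were followed through 6 groups of mouse dendritic cell RNA-seq libraries. The set held 10 genes, chosen by symbol: the GBP genes Gbp2, Gbp3, Gbp4, Gbp5 and Gbp7 and the IRG genes Tgtp1, Iigp1, Igtp, Irgm1 and Irgm2. All 10 were among the 32190 symbols of each count table, and all 10 passed the filter on low counts in both tables. For the tumoral groups, dendritic cells (DCs, which take up antigen and present it to T cells) were sorted at a late stage (day 14) and an early stage (day 7) from tumors of MC38, a mouse colon carcinoma line, grown in Zbtb46-Tdtomato mice with a WT genotype label. Zbtb46-Tdtomato is a fluorescent reporter of the transcription factor Zbtb46, which marks conventional DCs. For the other groups, DCs grown from bone marrow (BMDCs) of Pde5-/- or WT mice received LPS, the Toll-like receptor 4 ligand of Gram-negative bacteria, at 200 ng/ml for 12 h, or were left unstimulated. The BMDC groups were thus Pde5ko LPS, WT LPS, Pde5ko unstimulated and WT unstimulated, and the labels give a time of 9 days for all 4. Each of the 6 groups had 2 libraries. The labels do not say whether these came from separate animals or cultures, so p-values measure only the spread between libraries, which may be technical.

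Both families are GTPases whose genes interferons switch on, interferon-gamma most of all, in part through interferon regulatory factors. GBPs assemble on pathogen-containing vacuoles and on bacteria that reach the cytosol, where they help to open membranes and to expose lipopolysaccharide to caspase-11. IRG effectors such as Tgtp1 (also called Irgb6) and Iigp1 (also called Irga6) load onto the same vacuoles in mice, and the regulators Irgm1, Irgm2 and Igtp (also called Irgm3) keep the effectors inactive on the cell's own membranes. LPS reaches the same genes in DCs by way of interferon-beta, which the stimulated cells secrete.

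The interferon-stimulated response element (ISRE), the binding site of interferon regulatory factors, was searched on both strands as GAAA, any pair of bases and GAAA, in each of the RefSeq promoters of GRCm38.p6, which reach from 250 bases before to 50 bases after the start. It was found in 3.44% of 32841 promoters of all genes and in a promoter of each of the 8 members with an entry, and the table has none for Gbp4 and Iigp1. The 60 bases around the match are shown for these 8 because they share this element and moved together in the BMDC libraries. Capitals mark the ISRE and, in Tgtp1, Igtp and Irgm2, also a gamma-activated site (GAS, an element of interferon-gamma responsive promoters, searched as TTCNNNGAA) just upstream of it.

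The GBP windows lie at chr3:142496754-142496813 (Gbp5), chr3:142530268-142530327 (Gbp7), chr3:142559984-142560043 (Gbp3) and chr3:142620589-142620648 (Gbp2), all on the + strand, and the match reads as its reverse complement in each.
Gbp5: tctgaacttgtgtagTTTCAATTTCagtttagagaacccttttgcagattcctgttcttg
Gbp7: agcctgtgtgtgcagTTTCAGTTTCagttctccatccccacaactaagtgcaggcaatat
Gbp3: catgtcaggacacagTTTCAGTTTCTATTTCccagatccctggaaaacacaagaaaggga
Gbp2: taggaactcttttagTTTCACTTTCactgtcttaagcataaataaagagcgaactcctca

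The IRG windows lie at chr11:48871406-48871465 (Irgm1, - strand), chr11:48992279-48992338 (Tgtp1, - strand), chr11:58199507-58199566 (Igtp, + strand) and chr11:58214898-58214957 (Irgm2, + strand).
Irgm1: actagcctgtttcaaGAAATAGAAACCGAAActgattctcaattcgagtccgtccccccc
Tgtp1: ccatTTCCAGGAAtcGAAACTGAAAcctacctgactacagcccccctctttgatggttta
Igtp: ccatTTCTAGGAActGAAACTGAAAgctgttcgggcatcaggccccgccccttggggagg
Irgm2: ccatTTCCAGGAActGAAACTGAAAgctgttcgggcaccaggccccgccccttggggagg

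Gbp3 and Irgm1 each held 2 overlapping matches. Gbp3 has a further promoter in the table, without a match, so 8 of the 9 promoters of members held the ISRE. The GAS letters were found in 8.30% of all promoters and in 5 of the 8 members, the 3 above plus Gbp5 and Gbp7, where they lie outside the window shown. Igtp and Irgm2, which are neighbours, were identical at 247 of 271 aligned promoter positions (91.1%). A match describes these letters only, and binding was not measured.

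The genes lie in clusters, given here in GRCm38, the same assembly as mm10, from GENCODE M21. Gbp5 (142493978 to 142522344), Gbp7 (142530342 to 142550149), Gbp3 (142560026 to 142573209) and Gbp2 (142620602 to 142638008) follow each other on chromosome 3, and Gbp4 lies on chromosome 5 (105115767 to 105139586). Irgm1 (48861968 to 48871683), Tgtp1 (48985327 to 48994172), Igtp (58199556 to 58207591) and Irgm2 (58199618 to 58222782) lie on chromosome 11, and Iigp1 on chromosome 18 (60376027 to 60392634). Close copies limit the counts of some of them. Of all stretches of 50 bases in the Tgtp1 transcripts, 81.2% also occur in another gene, 79.4% in its copy Tgtp2, so Tgtp1 is uncertain as a single gene. The share was 12.7% for Gbp7, 11.8% for Igtp, 7.83% for Irgm2 and 7.78% for Gbp4, and between 0.379% and 3.75% for the other 5. Exons of Igtp and Irgm2 overlap each other, and those of Gbp4 overlap Gbp8 and Gbp9. Exons of Tgtp1 overlap Gm12185, those of Gbp7 overlap Gm43802 and those of Gbp2 overlap Mir6381. These overlaps add to that uncertainty. Igtp and Irgm2 both lie on the + strand, so counting by strand would not separate them where their exons overlap. The strand setting of the counting is not given in the sources used here, so the other overlaps cannot be judged.

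Library totals ranged between 14153700 and 19293300 counts in tumoral libraries and between 16122900 and 19684300 counts in BMDC libraries, rounded to 6 digits. Replicates of every group differed by more than counting noise, and the pair of early tumoral libraries differed most, with a chi-square per degree of freedom of 94.8, while the other groups had 14.6 to 30.4. Of the 11 core conventional DC genes, 0 were at 0 counts in any library, and their summed level was 12223 and 16217 CPM in late tumoral, 14597 and 19164 CPM in early tumoral and 15563 to 20185 CPM in BMDC libraries (CPM, the usual unit of counts scaled to the library total). Cd74 alone averaged 8639 CPM in late and 10345 CPM in early tumoral libraries, so like sums do not show a like share of DCs. Zbtb46 averaged 25.4 CPM in late and 33.0 CPM in early tumoral libraries, against 129 to 247 CPM in BMDC groups. Flt3 averaged 89.0 and 101 CPM, against 417 to 456 CPM. Itgax went the other way, with 476 and 400 CPM against 84.1 to 174 CPM. Macrophage genes were detected as well, at 15083 and 16801 CPM in late tumoral, 14856 and 7538 CPM in early tumoral and 855 to 2613 CPM in BMDC libraries. Pde5a, the gene named by the knockout label, had 22 and 43 counts in Pde5ko LPS against 52 and 20 in WT LPS libraries, and 47 and 61 counts in Pde5ko unstimulated against 55 and 37 in WT unstimulated libraries. The count thus did not separate the genotype labels, and every genotype difference below is one between libraries so labelled.

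The 10 GTPase genes were lowest, as a sum, in WT unstimulated BMDCs and highest in both LPS groups. Their summed level was 2336 ± 293 CPM in Pde5ko LPS, 2450 ± 420 CPM in WT LPS, 1463 ± 426 CPM in Pde5ko unstimulated and 318 ± 12.5 CPM in WT unstimulated BMDCs, and 696 ± 199 CPM in late and 1673 ± 311 CPM in early tumoral DCs (mean ± SD, n = 2 libraries here and throughout). The sum made up 0.0310% and 0.0327% of all counts in the WT unstimulated libraries, the lowest, and 0.275% in the highest, a WT LPS library. In bulk samples, fewer cells of a type and less RNA per cell cannot be told apart. The tumoral and BMDC tables were tested separately, so levels between them are set side by side with no test.

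**Figure D1:**
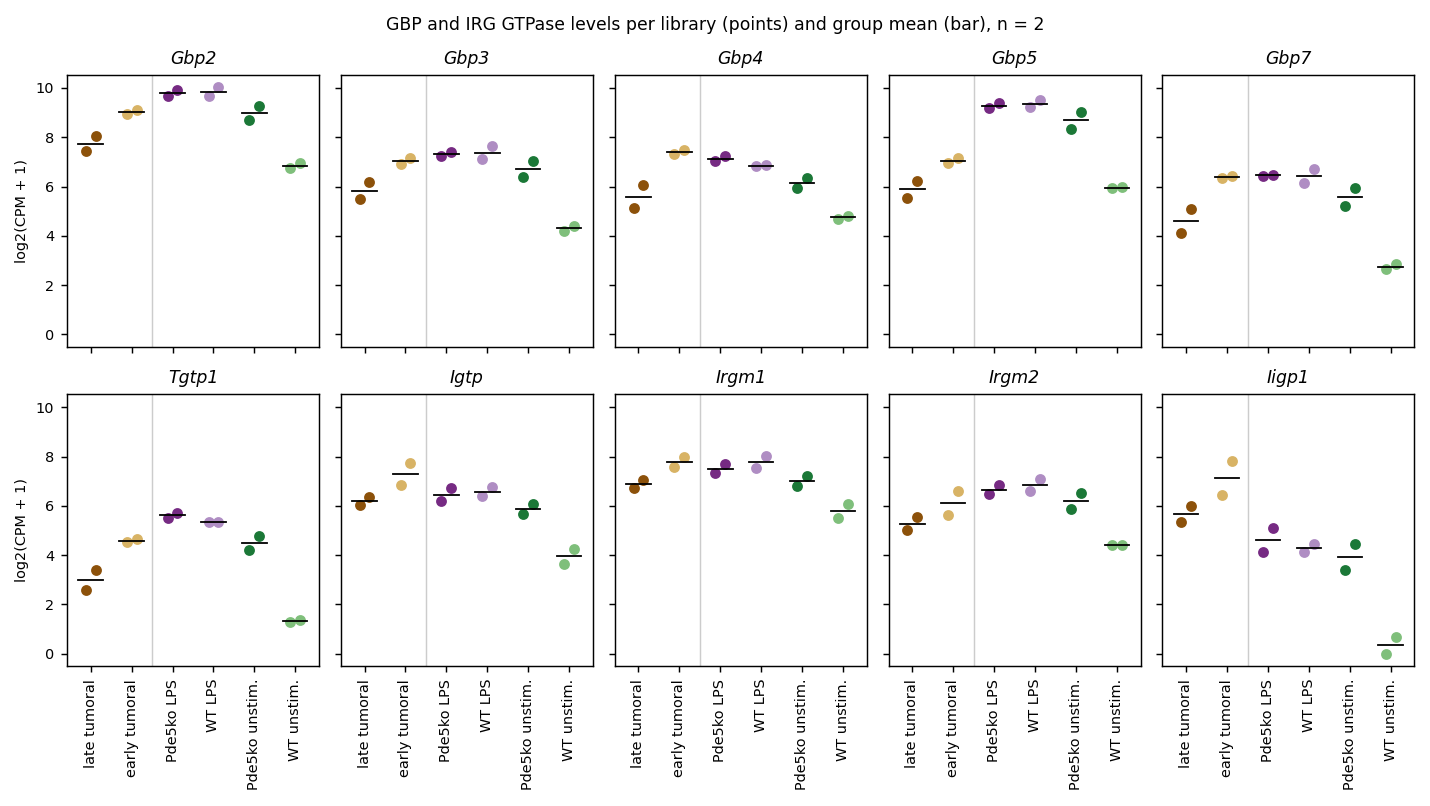
Level of each of the 10 genes as log2(CPM + 1) on the vertical axis, with 1 point per library and a bar at the mean of the 2 libraries of a group. WT unstimulated BMDCs stand lowest in 9 panels, Gbp5 in late tumoral DCs lies level with them, and all tumoral points of Iigp1, 40.1 to 224 CPM, lie above its BMDC points, at most 33.4 CPM.

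Per kilobase of exon, Gbp2 was the most abundant of the 10 in every group, with 370 ± 68.8 CPM per kb in WT LPS and 209 ± 16.3 CPM per kb in early tumoral DCs. Next came Gbp5 in WT LPS BMDCs (99.4 ± 12.9 CPM per kb) and Igtp in early tumoral DCs (81.1 ± 35.7 CPM per kb). The order of groups also differed between genes. Gbp4 had its highest level in early tumoral DCs, as did Igtp, and for both the libraries did not overlap those of the next group. Iigp1 was highest in early and next in late tumoral DCs, and its Pde5ko LPS, WT LPS and Pde5ko unstimulated libraries overlapped between neighbours in that order. Gbp5 showed the opposite order, with the 3 LPS or Pde5ko groups of BMDCs (423 to 660 CPM on average) above early tumoral DCs (131 ± 13.1 CPM), and late tumoral (59.7 ± 20.4 CPM) and WT unstimulated libraries (60.7 ± 0.896 CPM) overlapping. For Gbp2, Gbp3, Irgm1 and Irgm2 the WT LPS and Pde5ko LPS groups were among the top 3, and their libraries overlapped.

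In WT BMDCs, LPS raised all 10 GTPase genes. Of all 13072 genes tested, 37.6% were called, 20% of all as higher and 17.6% as lower. The median log2 fold change of the 10 was 3.30, between 2.2 for Irgm1 and 6.12 for Iigp1, beside a median of -0.02 over all genes tested. Every WT LPS library lay above every WT unstimulated library for each of the 10. On CPM of the library total, 23.6% of all genes were higher and 50.4% lower without overlap. Fold changes are log2 values from edgeR's quasi-likelihood test with their standard error (SE), and a gene was called at a Benjamini-Hochberg adjusted p under 0.05 over all genes tested.

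Among the GBPs, Gbp2, which reaches membranes through a lipid anchor, had 1054 and 809 CPM in WT LPS libraries, against 123 and 106 CPM in WT unstimulated libraries (log2 fold change 3.23, SE 0.24, adjusted p = 0.000282). Gbp5, a prenylated member linked to inflammasome activation in macrophages, had 720 and 599 CPM in WT LPS and 61.4 and 60.1 CPM in WT unstimulated libraries (3.64, SE 0.25, adjusted p = 0.000282). Gbp7, which in mouse macrophages assists assembly of the phagocyte oxidase, had 104 and 69.0 CPM in WT LPS and 5.27 and 6.2 CPM in WT unstimulated libraries (4.11, SE 0.33, adjusted p = 0.000355). Of the 5 GBPs, Gbp7 rose most and had the lowest unstimulated level per kilobase (1.02 ± 0.117 CPM per kb). Gbp3, of the same cluster, had 198 and 138 CPM in WT LPS and 17.4 and 20.2 CPM in WT unstimulated libraries (3.36, SE 0.27, adjusted p = 0.000355). Gbp4, the member encoded outside that cluster, rose least of the GBPs, with 115 and 113 CPM in WT LPS and 24.9 and 27.2 CPM in WT unstimulated libraries (2.33, SE 0.16, adjusted p = 0.000282).

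Tgtp1 and Iigp1, the IRG effectors of the set, had its largest rises. Tgtp1 had 40.0 and 39.2 CPM in WT LPS libraries, against 1.42 and 1.61 CPM in WT unstimulated libraries (4.90, SE 0.25, adjusted p = 0.00012). Iigp1 had 16.3 and 21.2 CPM in WT LPS libraries, against 0 and 10 counts (0 and 0.62 CPM) in WT unstimulated libraries (6.12, SE 0.88, adjusted p = 0.00266). Its fold rests on those 10 counts and became 11.44 without the WT unstimulated library that holds them. The 3 regulators rose less than both effectors. Irgm1 had 258 and 186 CPM in WT LPS and 44.2 and 67.2 CPM in WT unstimulated libraries (2.2, SE 0.27, adjusted p = 0.00129). Irgm2 had 134 and 95.8 CPM in WT LPS and 20.1 and 20.3 CPM in WT unstimulated libraries (2.71, SE 0.28, adjusted p = 0.000741). Igtp had 109 and 82.5 CPM in WT LPS and 11.6 and 18 CPM in WT unstimulated libraries (2.90, SE 0.30, adjusted p = 0.000677).

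Other genes of the pathway were given by list. Of 16 further GBP and IRG genes, 13 rose and 1 fell in WT BMDCs with LPS, with a median of 3.22. Among them, Gbp10, Gm4841 and F830016B08Rik had 0 CPM in both WT unstimulated libraries. They passed the filter on low counts only through LPS libraries. Gbp11 also needed LPS libraries to pass, with 0 and 1 counts in WT unstimulated and 15 and 7 counts in Pde5ko unstimulated libraries. The filter thus favoured a rise of these genes in advance, in the counts and medians of this list here and below. Gbp6 had 13.8 and 10.6 CPM in WT LPS libraries, against 1 and 6 counts in WT unstimulated libraries (6.0, adjusted p = 0.000282), and Irgq (1.13) and Gbp8 (1.65) rose as well. The gene that fell was Irgc1, with 2 and 5 counts in WT LPS and 15 and 19 counts in WT unstimulated libraries (-2.13, adjusted p = 0.0366). Of 9 other large GTPases, 6 rose and 0 fell, led by the antiviral Mx2 (2.94), Gvin1 (2.56) and Ifi47 (3.08). Ifi47, also called Irgd, is itself an IRG gene. It is counted in this list, here and below, rather than among the further GBP and IRG genes. Of 16 tested genes of interferon ligands, receptors and signalling, 13 rose and 2 fell. Irf9, a transcription factor of the type I interferon response, rose by 1.45, Irf1 by 1.09 (adjusted p = 0.00247) and the feedback inhibitor Socs1 by 1.48 (adjusted p = 0.000872). Ifngr1, the ligand-binding chain of the interferon-gamma receptor, fell, with 74.4 and 70.5 CPM in WT LPS and 207 and 240 CPM in WT unstimulated libraries (-1.42, adjusted p = 0.000282), as did the type I receptor chain Ifnar2. Ifng and Ifnb1 were too low to be tested in BMDCs, with at most 14 counts of Ifng and 1 count of Ifnb1 in any library.

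Counts for downstream partners of the GTPases are to be read beside the 37.6% of all genes that were called. Of 9 inflammasome genes, which include Nlrp3 and Nlrc4, 4 rose and 2, Aim2 and Pycard, fell. Il1b stood at 4.07 (adjusted p = 0.00012), the pore-forming Gsdmd at 1.06 and Casp4, which encodes caspase-11, at 2.32 (adjusted p = 0.000525). Of 14 genes of ATG8 conjugation and vacuole ubiquitin, the machinery that targets IRGs and GBPs to vacuoles, 2 rose, the ubiquitin ligases Traf6 (0.70) and Trim21 (1.07), and 2 fell, Atg7 (-0.71) and Gabarapl1. Of the 5 enzymes of the protein prenylation pathway, which gives some GBPs their lipid anchor, 0 passed. An unadjusted p under 0.05 was reached by 2 of them, and by 6206 of all 13072 genes. The smallest adjusted p of the 5 enzymes were 0.0673 for Icmt (0.24), 0.0982 for Fntb (-0.64) and 0.401 for Pggt1b (0.13).

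Without stimulation, all 10 GTPase genes were higher in libraries labelled Pde5 knockout than in WT. Of all genes tested, 18% were called, 12% of all as higher and 5.98% as lower. The median log2 fold change of the 10 was 2.44, between 1.33 for Irgm1 and 5.72 for Iigp1, beside -0.01 over all genes. The libraries of the labels did not overlap for any of the 10, and on CPM of the library total 25.5% of all genes were higher and 40.7% lower without overlap. This comparison and that of LPS in WT share the WT unstimulated libraries, so the values are set side by side and no likeness between them is drawn.

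Gbp2 had 618 and 414 CPM in Pde5ko unstimulated libraries, against 123 and 106 CPM in WT unstimulated libraries (log2 fold change 2.28, SE 0.24, edgeR adjusted p = 0.0013). Gbp5 had 524 and 323 CPM in Pde5ko unstimulated libraries, against 61.4 and 60.1 CPM in WT unstimulated libraries (2.91, SE 0.24, adjusted p = 0.000864). Gbp7 had 60.5 and 36.1 CPM, against 5.27 and 6.2 CPM in WT unstimulated libraries (3.18, SE 0.32, adjusted p = 0.00164). The first Pde5ko unstimulated library was the higher of the pair for all 10 genes, by 1.32 to 1.68 times for 9 of them and by 2.17 times for Iigp1. Gbp3 had 129 and 83.4 CPM, against 17.4 and 20.2 CPM in WT unstimulated libraries (2.61, SE 0.26, adjusted p = 0.0016). Gbp4 had 79.8 and 60.6 CPM, against 24.9 and 27.2 CPM in WT unstimulated libraries (1.54, SE 0.16, adjusted p = 0.000984), again the smallest difference of the GBPs.

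Of the IRG effectors, Tgtp1 had 26.6 and 17.7 CPM in Pde5ko unstimulated libraries, against 1.42 and 1.61 CPM in WT unstimulated libraries (3.97, SE 0.26, adjusted p = 0.000502). Iigp1 had 20.8 and 9.55 CPM in Pde5ko unstimulated libraries, against 0 and 0.62 CPM in WT unstimulated libraries (5.72, SE 0.89, adjusted p = 0.00791). The regulators differed less. Irgm1 had 149 and 111 CPM, against 44.2 and 67.2 CPM in WT unstimulated libraries (1.33, SE 0.27, adjusted p = 0.017). Irgm2 had 90.3 and 57.0 CPM, against 20.1 and 20.3 CPM in WT unstimulated libraries (1.97, SE 0.28, adjusted p = 0.00515). Igtp had 66.9 and 50.6 CPM, against 11.6 and 18 CPM in WT unstimulated libraries (2.10, SE 0.29, adjusted p = 0.00487). The mean of the Pde5ko unstimulated libraries amounted to 55.4% (Gbp2) to 80.9% (Iigp1) of the WT LPS mean. Some IRG calls rested on a single library: Irgm1 did not pass without Pde5ko unstimulated replicate 1 (1.07, adjusted p = 0.135) or WT unstimulated replicate 1 (1.08, adjusted p = 0.0627), Iigp1 without Pde5ko unstimulated replicate 1 (5.01, adjusted p = 0.0541), and Irgm2 without WT unstimulated replicate 2 (1.96, adjusted p = 0.0512). The fold of Iigp1 became 11.04 without that same WT library.

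Of the 16 further GBP and IRG genes, 9 were higher and 0 lower in Pde5ko unstimulated libraries, with a median of 2.26. Gbp6 (5.45, adjusted p = 0.000919), Irgq (0.98) and Gbp8 (1.13) had the smallest adjusted p of these. The WT unstimulated libraries held 1 and 6 counts of Gbp6, too few to size its fold closely. Of the other large GTPases, 4 of 9 were higher, led by Mx2 (2.09), Gvin1 (1.97) and Ifi47 (2.23). In the interferon list, 9 of 16 were higher and 2 lower. Stat2 (1.46), Irf9 (0.84), Irf1 (0.80, adjusted p = 0.019) and Socs1 (0.98, adjusted p = 0.0099) were among those higher. Ifngr1 was lower, with 128 and 164 CPM in Pde5ko unstimulated and 207 and 240 CPM in WT unstimulated libraries (-0.51, adjusted p = 0.0217). Of the inflammasome genes, Il1b (3.85) and Casp4 (1.60) were among 3 of 9 that were higher, and Aim2, which senses cytosolic DNA, was the 1 lower (-0.50, adjusted p = 0.0099). Of the ATG8 and ubiquitin genes, 1 of 14 was higher, Traf6 (0.45), and 3 were lower, Atg7 (-0.61), Gabarapl1 (-0.46) and Sqstm1. Of the 5 prenylation enzymes 0 passed and 1 had an unadjusted p under 0.05, as did 4478 of all 13072 genes. Icmt stood at 0.30 (adjusted p = 0.0536), Rce1 at 0.21 and Pggt1b at 0.16.

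**Figure D2:**
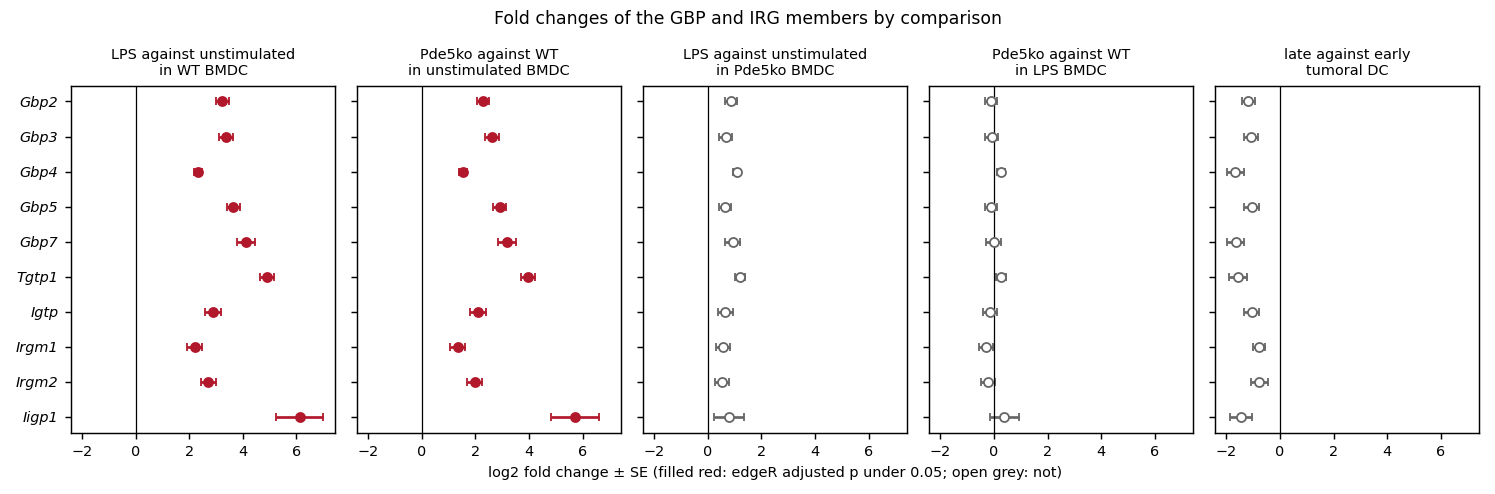
Log2 fold change of each of the 10 genes with its SE in 5 comparisons, where filled red points have an edgeR adjusted p under 0.05. All 10 points are filled for LPS in WT (2.2 to 6.12) and for Pde5ko against WT without stimulation (1.33 to 5.72), and none are filled in the other 3 panels, where the values run from 0.53 to 1.20, from -0.31 to 0.39 and from -1.66 to -0.77.

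In libraries labelled Pde5 knockout, 0 of the 10 genes passed for LPS against no stimulation, and 0% of all genes tested were called in edgeR. Of the 10, 7 had an unadjusted p under 0.05, as did 2800 of all 13072 genes, DESeq2 called 6 and limma-voom 0. All 10 fold changes were above 0, with a median of 0.73 beside -0.02 over all genes. For 8 of the 10, both Pde5ko LPS libraries lay above both Pde5ko unstimulated libraries, as did 19.2% of all genes, and Irgm2 and Iigp1 overlapped. Gbp4 had 129 and 151 CPM in Pde5ko LPS and 79.8 and 60.6 CPM in Pde5ko unstimulated libraries (1.07, SE 0.15, edgeR adjusted p = 0.0502), the smallest adjusted p of the 10. Tgtp1 had 45.0 and 51.8 CPM in Pde5ko LPS and 26.6 and 17.7 CPM in Pde5ko unstimulated libraries (1.20, SE 0.19, adjusted p = 0.0612). The other 8 had log2 fold changes between 0.53 for Irgm2 (adjusted p = 0.287) and 0.92 for Gbp7 (adjusted p = 0.131). The result turned on 1 library, since 6 of the 10 (Gbp2, Gbp3, Gbp4, Gbp5, Gbp7 and Tgtp1) were called without Pde5ko unstimulated replicate 1, the higher of its pair, with a median of 1.13 and 615 genes called in all.

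Of the pathway lists, 0 genes passed in this comparison in edgeR. Unadjusted p under 0.05 were reached by 9 of 16 further GBP and IRG genes (median 0.86), 3 of 9 other large GTPases, 8 of 16 interferon, 2 of 9 inflammasome, 4 of 14 ATG8 and ubiquitin genes and 1 of 5 prenylation enzymes, beside 2800 of all 13072 genes. Nearest to the threshold were Gbp8 (0.86, adjusted p = 0.0703), Gm12185 (1.75) and Gbp9 (1.02) in the first list. Values for the next lists were 0.40 for Dnm1l, 0.62 for Mx2 and 0.54 for Mx1, and 0.48 for Irf9, -0.63 for Ifnar2 and 0.59 for Socs1. Pycard stood at -0.39, Gsdmd at 0.25 and Nlrp3 at -0.62 in the inflammasome list, and Gabarapl1 at -0.34, Traf6 at 0.26 and Trim21 at 0.54 in the ATG8 list. The prenylation enzymes Rce1, Pggt1b and Fntb stood at -0.55, 0.22 and -0.48. Irf1 stood at 0.37 (adjusted p = 0.262) and Ifngr1 at -0.37.

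With LPS, the 2 genotype labels were not told apart by any of the 10 genes. In edgeR, 0 passed and 0 had an unadjusted p under 0.05, DESeq2 and limma-voom called 0, and 0% of all genes tested were called in edgeR. The median log2 fold change of Pde5ko LPS against WT LPS was -0.09 beside -0.01 over all genes. Gbp2 had 810 and 959 CPM in Pde5ko LPS and 1054 and 809 CPM in WT LPS libraries (-0.10, 95% interval -0.61 to 0.42). Gbp5 had 575 and 666 CPM in Pde5ko LPS and 720 and 599 CPM in WT LPS libraries (-0.11, interval -0.63 to 0.41). The libraries of both labels overlapped for 8 genes. The exceptions were Gbp4 at 0.27 (interval -0.06 to 0.61) and Tgtp1 at 0.27 (interval -0.16 to 0.70), whose Pde5ko LPS libraries lay above both WT LPS libraries, as did those of 25.2% of all genes, with 20.9% lower without overlap. Iigp1 had the widest interval, with 16.4 and 33.4 CPM in Pde5ko LPS and 16.3 and 21.2 CPM in WT LPS libraries (0.39, interval -0.90 to 1.68). Irgm1 stood at -0.31 (interval -0.92 to 0.30), Irgm2 at -0.21 (-0.82 to 0.41), Igtp at -0.14 (-0.77 to 0.49), Gbp3 at -0.09 (-0.65 to 0.47) and Gbp7 at -0.01 (-0.64 to 0.62). These intervals do not show that the labels are alike.

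The pathway lists also had 0 genes past the threshold between the labels with LPS, and unadjusted p under 0.05 in 1 of 16, 0 of 9, 1 of 16, 2 of 9, 3 of 14 and 1 of 5 genes in the order above, beside 1330 of all 13072 genes. The smallest adjusted p belonged to Irgc1 (1.98, adjusted p = 0.401), Gbp8 (0.35) and Gm4841 (1.33) among GBP and IRG genes and to Atl2 (0.29), Atl1 (0.60) and Dnm2 (-0.11) among other large GTPases. Gm4841 averaged 0.88 CPM in Pde5ko LPS and 0.34 CPM in WT LPS libraries. Like Gbp10, it passed the filter on low counts only through the Pde5ko LPS libraries, so the direction of its fold was favoured in advance. In the interferon list they belonged to Ifngr1 (0.53, adjusted p = 0.243), Ifnar2 (-0.28) and Usp18 (-0.38), while Irf1 stood at 0.08 and Socs1 at 0.09. Casp1 (-0.56), Gsdmd (-0.28) and Aim2 (0.16), Atg5 (-0.38), Atg3 (-0.30) and Gabarapl1 (-0.26), and Rce1 (-0.47), Pggt1b (0.25) and Icmt (0.19) led the other 3 lists.

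The LPS effect itself was tested for a difference between the labels, as an interaction of genotype label and stimulation. It was smaller in Pde5ko than in WT libraries for 9 of the 10 genes, where 4.48% of all genes tested were called, 3.91% in this direction and 0.566% in the other. The difference had a median of -2.54 on the log2 scale, beside -0.01 over all genes. It was -3.70 for Tgtp1 (SE 0.32, edgeR adjusted p = 0.00586), -3.02 for Gbp5 (SE 0.33, adjusted p = 0.00668), -2.38 for Gbp2 (SE 0.32, adjusted p = 0.0115), -2.70 for Gbp3 (adjusted p = 0.0126), -3.19 for Gbp7 (adjusted p = 0.0129) and -1.26 for Gbp4 (SE 0.21, adjusted p = 0.0187). Among the other IRGs it was -2.18 for Irgm2 (adjusted p = 0.0272), -2.24 for Igtp (adjusted p = 0.0277) and -5.33 for Iigp1 (SE 1.09, adjusted p = 0.0452). Irgm1 did not pass, at -1.65 (SE 0.37, adjusted p = 0.0563). In terms of levels, WT LPS and Pde5ko LPS libraries overlapped or lay close, while Pde5ko unstimulated libraries lay above WT unstimulated ones.

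The number of genes called in this test depended on single libraries. It was 2 (Tgtp1 and Gbp5) without Pde5ko LPS replicate 1, 5 without WT unstimulated replicate 2, 5 without WT LPS replicate 1 and 6 without WT unstimulated replicate 1, and 7 without WT LPS replicate 2 or Pde5ko unstimulated replicate 1. Over all genes, these fits called 58, 222, 137, 607, 274 and 195 genes in the order given. Leaving out 1 library, the median lay between -2.83 and -2.16. Tgtp1 and Gbp5 passed under every alternative run for this test. Iigp1 did not pass in 6 of the 8 fits without a library, and its difference was -10.66 without WT unstimulated replicate 2.

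**Figure D3:**
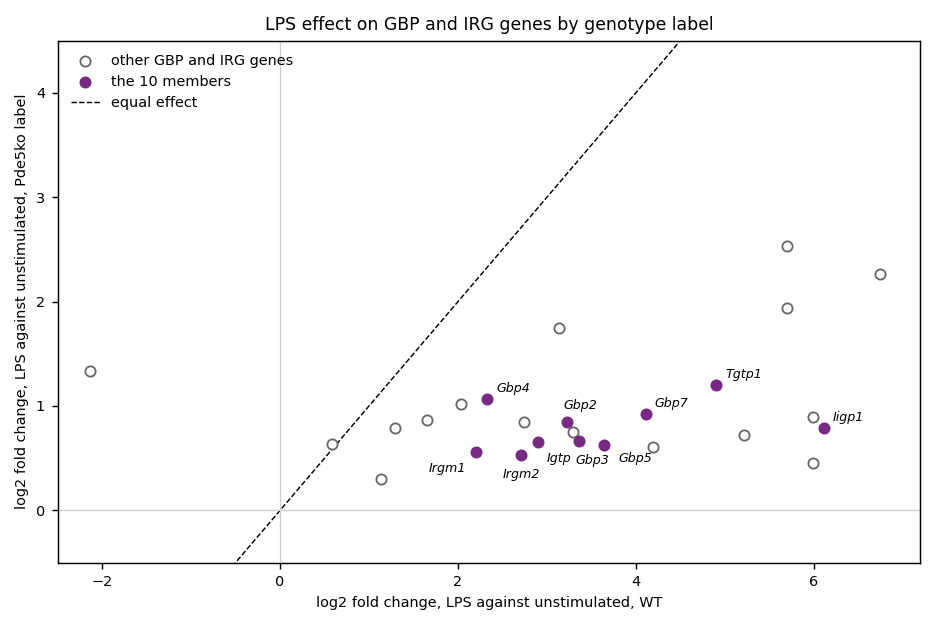
Log2 fold change of LPS against no stimulation in WT BMDCs (horizontal) and in libraries labelled Pde5ko (vertical), with 1 point per gene, filled for the 10 GTPase genes and open for 16 further GBP and IRG genes, and a dashed line at equal effects. All 10 filled points lie below the line, at 2.2 to 6.12 in WT and 0.53 to 1.20 in Pde5ko libraries, and the open point at the left is Irgc1.

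Among the 16 further GBP and IRG genes, 5 had a smaller LPS effect in Pde5ko libraries and 0 a larger one. Gbp6 (-5.55, adjusted p = 0.00668) and Irgq (-0.83) led these. The value of Gbp6 rests on 1 and 6 counts in WT unstimulated libraries, too few to size it closely. Tgtp2 and Gm5431 were smaller as well, and Gm4951 passed too (adjusted p = 0.0285), with 0 and 3 counts in WT unstimulated libraries, too few to size its fold. Of other large GTPases 3 of 9 passed, Mx2 (-2.32), Gvin1 (-2.05) and Ifi47 (-2.45). Of the interferon list 4 of 16 were smaller, among them Stat2 (-1.43), Irf9 and Socs3, and 1 was larger, Ifngr1 (1.05, adjusted p = 0.0167). Irf1 stood at -0.72 (adjusted p = 0.143) and Socs1 at -0.89 (adjusted p = 0.0916). Of the inflammasome list 3 of 9 were smaller, Il1b (-3.97), Casp4 (-1.96) and Gsdmd (-0.81), and 1, Aim2, was larger. Of the ATG8 list 0 of 14 passed and 2 had an unadjusted p under 0.05, with Traf6 at -0.44, Atg7 at 0.42 and Trim21 at -0.52. Of the prenylation list 0 of 5 passed and 1 had an unadjusted p under 0.05, with Rce1 at -0.68 (adjusted p = 0.0759), Icmt at -0.11 and Pggt1b at 0.09. Over all genes, 2789 of 13072 had an unadjusted p under 0.05 in the interaction test.

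Markers of other cells that moved beside these differences were as follows. The 11 macrophage genes summed to 2613 and 2271 CPM in Pde5ko unstimulated against 2441 and 2013 CPM in WT unstimulated libraries, and 2 of 11, Fcgr1 and C1qa, were higher (2.50 and 3.24). Neutrophil genes summed to 48.3 and 60.6 CPM in Pde5ko unstimulated against 99.8 and 154 CPM in WT unstimulated libraries, and 4 of 5 tested were lower. In WT LPS libraries they summed to 28.7 and 37.2 CPM, and 4 of 5 were lower than in WT unstimulated libraries. NK and cytotoxic genes summed to 1381 and 1057 CPM in Pde5ko unstimulated against 692 and 603 CPM in WT unstimulated libraries, with 2 of 9 higher, Gzmb and Ccl5. Most of these sums was the chemokine gene Ccl5, at 1132 CPM on average in Pde5ko unstimulated and 588 CPM in WT unstimulated libraries. The sums thus do not measure NK cells. With LPS in WT, 5 of 11 macrophage genes were higher and 1, Csf1r, lower. NK and cytotoxic genes summed to 1387 and 1453 CPM in WT LPS against 692 and 603 CPM in WT unstimulated libraries, with 2 of 9 higher and 1 lower. Again most of the sum was Ccl5, at 1358 CPM on average in WT LPS libraries. In Pde5ko LPS libraries macrophage genes summed to 855 and 1790 CPM, against 2613 and 2271 CPM in Pde5ko unstimulated libraries. All 11 had a fold change below 0 in that comparison, with a median of -0.77, 8 without overlap (36.9% of all genes were lower without overlap) and 0 passing, 2 of the 11 at an unadjusted p under 0.05. In the interaction test 1 of 11 macrophage genes (Fcgr1), 1 of 10 T cell genes (Cd247) and 1 of 9 NK and cytotoxic genes (Ccl5) had a smaller LPS effect in Pde5ko libraries, and 2 of 5 neutrophil genes (Ngp and Ltf) a larger one. T cell genes summed to at most 57.5 CPM in any BMDC library. The part of these cells in the GTPase values was not tested.

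The 10 genes also varied together across single BMDC libraries. Over the 8 libraries, Pearson's r between the log2 levels of 2 members was 0.936 to 0.999 in 45 pairs, with a median of 0.980, which describes 4 groups with shared libraries and depth. The 5 other genes closest to the mean standardised profile of the 10, of 9825 ranked without provisional symbols such as those of the Gm and Rik series, were Gvin1 (r = 0.997), Susd2 (0.996), Stat2 (0.996), Gstt3 (0.996) and Srgn (0.996). Gstt3, for example, had 89.0 and 122 CPM in Pde5ko LPS, 117 and 102 CPM in WT LPS, 89.1 and 55.1 CPM in Pde5ko unstimulated and 8.77 and 9.49 CPM in WT unstimulated libraries. Stat2 had 555 and 625 CPM, 627 and 507 CPM, 531 and 379 CPM, and 173 and 183 CPM in the same order of groups.

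In tumoral DCs, all 10 GTPase genes were lower in both late libraries than in both early libraries, but 0 passed the adjusted test. Of all 13040 genes tested, 0.023% (3 genes) were called, and the libraries of 28.4% lay lower without overlap. The median log2 fold change of late against early was -1.13, between -1.66 for Gbp4 and -0.77 for Irgm2, beside 0.01 over all genes. Each of the 10 had an unadjusted p under 0.05, as did 1438 genes in all, DESeq2 called 8 and limma-voom 0.

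Gbp4 and Gbp7 had the largest differences. Gbp4 had 65.1 and 34.1 CPM in late libraries, against 178 and 157 CPM in early libraries (log2 fold change -1.66, SE 0.30, edgeR adjusted p = 0.113). Gbp7 had 33.4 and 16.5 CPM in late libraries, against 86.1 and 81.0 CPM in early libraries (-1.65, SE 0.32, adjusted p = 0.129). For Gbp2 the late libraries had 262 and 171 CPM and the early ones 554 and 496 CPM (-1.18, SE 0.25, adjusted p = 0.159). The 2 early libraries were close to each other for all 5 GBPs, within 0.869 to 1.16 times. Gbp3 had 70.8 and 43.9 CPM in late libraries, against 140 and 121 CPM in early libraries (-1.09, SE 0.26, adjusted p = 0.199). Gbp5 had 74.2 and 45.3 CPM in late libraries, against 122 and 141 CPM in early libraries (-1.05, SE 0.28, adjusted p = 0.256).

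For 4 of the 5 IRGs, the exception being Tgtp1, the early libraries differed from each other more than for any GBP. Tgtp1 had 9.53 and 5.02 CPM in late libraries, against 24.0 and 21.9 CPM in early libraries (-1.56, SE 0.35, adjusted p = 0.173). Iigp1 had 63.4 and 40.1 CPM in late libraries, against 224 and 86.6 CPM in early libraries (-1.45, SE 0.42, adjusted p = 0.311). Its first early library was thus 2.58 times the second. Igtp had 80.1 and 64.9 CPM in late libraries, against 215 and 113 CPM in early libraries (-1.05, SE 0.28, adjusted p = 0.268). Irgm1 had 132 and 104 CPM in late libraries, against 254 and 188 CPM in early libraries (-0.79, SE 0.23, adjusted p = 0.283). Irgm2 had 45.9 and 31.4 CPM in late libraries, against 95.5 and 48.0 CPM in early libraries, so that a late library came within a few CPM of an early one (-0.77, SE 0.31, adjusted p = 0.436).

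The count of genes that passed rested on the early libraries. It was 9 without early replicate 2 (all but Gbp5), where 572 genes were called in all, and 6 without early replicate 1 (Gbp2, Gbp3, Gbp4, Gbp5, Gbp7 and Tgtp1), where 1063 were called in all. It was 0, and 0 over all genes, without either late library, while the fold changes stayed below 0 in each case.

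**Figure D4:**
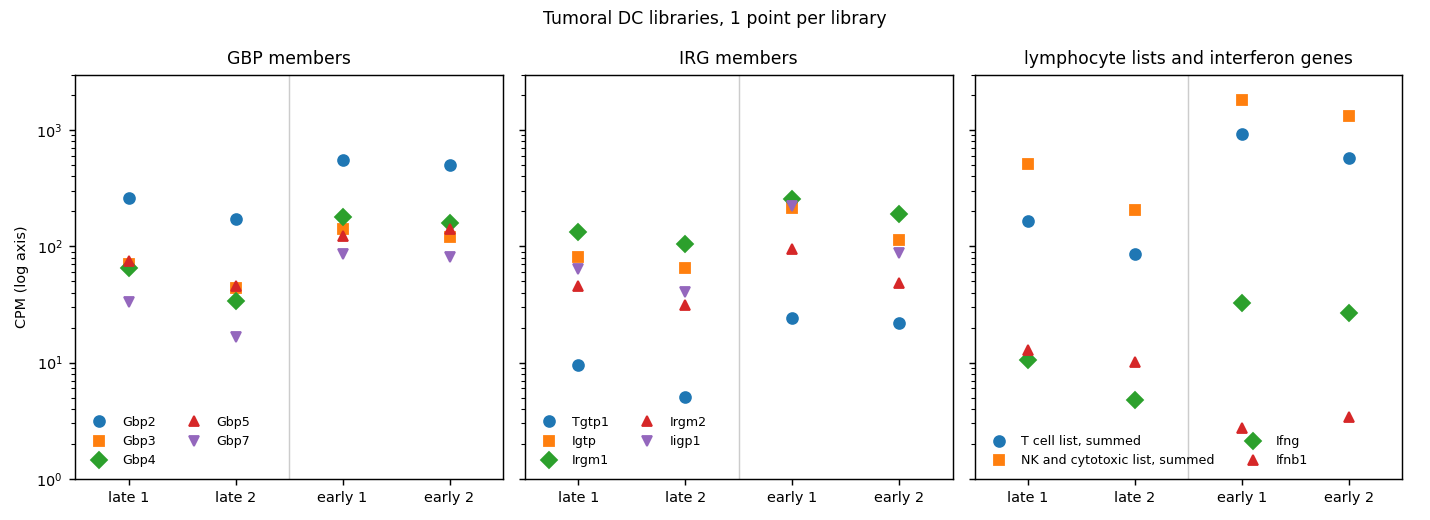
CPM on a log axis in the 2 late and 2 early tumoral DC libraries, for the 5 GBP genes, the 5 IRG genes, and the summed T cell and NK and cytotoxic lists with Ifng and Ifnb1. Each GTPase gene lies lower in both late libraries, as do the lymphocyte lists and Ifng, while Ifnb1 lies higher at 12.8 and 10.03 CPM against 2.75 and 3.37 CPM.

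Interferon ligands and lymphocyte genes also differed in level between the tumoral libraries. Ifng, the cytokine of activated T and NK cells, had 10.4 and 4.8 CPM in late libraries, against 32.2 and 26.4 CPM in early libraries (-1.85, SE 0.37, adjusted p = 0.129). Ifnb1, which encodes interferon-beta, had 12.8 and 10.03 CPM in late and 2.75 and 3.37 CPM in early libraries (1.99, SE 0.39, adjusted p = 0.124). Neither passed, and the libraries of each did not overlap between the stages. On CPM of the library total, 13.7% of all genes were higher and 28.4% lower in late libraries without overlap. The 13 T cell genes summed to 165 and 86.0 CPM in late and 921 and 570 CPM in early libraries, with a median of -2.56, and 1, Lck, was lower past the threshold (-2.25, adjusted p = 0.0444). The 12 NK and cytotoxic genes summed to 508 and 204 CPM in late and 1799 and 1317 CPM in early libraries, with a median of -2.07 and 0 passing, 11 of them at an unadjusted p under 0.05. None of these 25 genes was at 0 in any tumoral library. The 11 macrophage genes went the other way, with log2 fold changes between 0.18 and 1.14 and a median of 0.58. Of the 11, 0 passed and 3 had an unadjusted p under 0.05, as did 1438 of all 13040 genes. Without overlap, 6 of the 11 lay higher in late libraries, as did 13.7% of all genes. The part of any of these genes in the GTPase values was not tested.

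Of 15 further GBP and IRG genes tested in tumoral DCs, 0 passed and 12 had an unadjusted p under 0.05, with a median of -1.37. Gm12185 (-2.04, adjusted p = 0.181), Tgtp2 (-1.37) and Gbp2b (-2.31), the gene long known as mouse Gbp1, had the smallest adjusted p. Gm12185 overlaps exons of Tgtp1 and Tgtp2 is its copy, so their counts are not fully separate from that member. Of other large GTPases 0 of 9 passed and 2 had an unadjusted p under 0.05, with Ifi47 at -0.79, Gvin1 at -1.97 and Dnm1l at -0.35. Of 18 interferon genes 0 passed and 3 had an unadjusted p under 0.05. Irf1 stood at -0.98 (adjusted p = 0.256), Socs1 at -0.46 and Ifngr1 at -0.61. Of the inflammasome list 0 of 9 passed and 1 had an unadjusted p under 0.05, with Casp4 at -1.10, Casp1 at -0.47 and Aim2 at -0.45. Of the ATG8 list 0 of 14 passed and 1 had an unadjusted p under 0.05, with Gabarap at 0.62, Atg12 at 0.38 and Map1lc3a at 0.56. Of the prenylation list 0 of 5 passed, 0 of them at an unadjusted p under 0.05, with Pggt1b at -0.46, Rce1 at 0.38 and Fntb at 0.23.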

How the data were processed

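Raw counts, deposited by the authors as whole numbers under gene symbols, came in a tumoral and a BMDC table. Per the submitters' processing notes, fastp 0.12.4, HISAT2 2.2.1, featureCounts 2.0.1 and mm10 were used. Annotation, strand setting and multi-mapping rule: not given in the sources used here. The extraction text of the labels describes another tissue. All columns matched samples by name.

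Each table was analysed with edgeR 4.0.16 in R 4.3.3 (filterByExpr, minimum count 10, TMM, robust glmQLFit, glmQLFTest, Benjamini-Hochberg over 13040 tumoral or 13072 BMDC genes). The biological coefficient of variation was 0.278 and 0.138. The steps were tested on simulated counts. SE is the fold change over the root of F. DESeq2 1.42.0, limma-voom (limma 3.58.1), other scalings, no filter, a replicate block and leaving out each library were alternatives. The 95% intervals and p-values cover spread between 2 libraries a group.

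The members and lists were chosen with earlier results of these data known. Named were all members, Ifng, Ifnb1, Ifngr1, Irf1 and Socs1, per comparison the 3 genes of each pathway list with the smallest adjusted p, and the 5 genes most like the members (log2 CPM of at least 2). Other genes of these lists, and single marker genes, were named after their values were seen. Promoters came from RefSeq (GRCm38.p6), exons from GENCODE M21. The listed gene Gm12250 was not analysed here, and 1 gene of the interferon list that the rule names is not reported here.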

Additional observations from a re-analysis of the deposited data

Results flagged for a closer look

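For 9 of the 10 genes the LPS effect differed between the genotype labels by the interaction test in edgeR (adjusted p between 0.00586 and 0.0452). The median log2 fold change of Pde5ko against WT was 2.44 without stimulation and -0.09 with LPS. The interaction thus largely restates the unstimulated difference, from the same libraries. The log2 LPS effect in Pde5ko minus that in WT libraries was -3.70 for Tgtp1, -3.02 for Gbp5, -2.38 for Gbp2, -2.70 for Gbp3, -3.19 for Gbp7, -1.26 for Gbp4, -2.18 for Irgm2, -2.24 for Igtp and -5.33 for Iigp1. Groups of 2 libraries were too small to look for single samples that stand apart.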

How the results depend on the processing

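All 10 genes were called for LPS in WT under every alternative run, 8 to 10 for Pde5ko against WT without stimulation and 0 for Pde5ko against WT with LPS. For late against early tumoral DCs, 0 genes were called, but 9 without a filter, 8 with DESeq2, 4 with the replicate block (Gbp2, Gbp4, Gbp7, Iigp1) and 0 to 9 leaving out 1 library. For LPS in Pde5ko libraries, 0 were called, but 1 with DESeq2 size factors, library size or upper-quartile scaling, 2 without a filter, 6 with DESeq2, 2 with the replicate block (Gbp4, Tgtp1) and 0 to 6 leaving out 1 library. For the interaction, 9 were called, 7 with the replicate block, and 2 to 10 leaving out 1 library. The cause was not tested. Fold changes reversed only for Pde5ko against WT with LPS, where none was called: Gbp7 stood at 0.013 with library size, 0.019 with limma-voom and 0.026 with the replicate block. Leaving out 1 library gave ranges of -0.28 to 0.11 for Gbp2, -0.33 to 0.19 for Gbp3, -0.24 to 0.029 for Gbp5, -0.28 to 0.31 for Gbp7, -0.46 to 0.11 for Igtp, -0.43 to 0.058 for Irgm2 and -0.23 to 0.82 for Iigp1. Library size alone moved the median of all genes by -0.23 for LPS in WT and -0.11 for Pde5ko without stimulation. Over all genes, calls for LPS in Pde5ko numbered 0, against 793 with DESeq2, 587 without a filter and 321 with the replicate block, and tumoral calls 3, against 311, 689 and 173; the interaction gave 585 against 1082 with DESeq2. The labels do not say that equal replicate numbers mark shared animals. Deviations of same-numbered libraries correlated at -0.0425 between tumoral stages, 0.128 between unstimulated labels, 0.275 within WT, -0.0758 within Pde5ko and -0.202 between LPS labels, and with crossed numbers in the last 0 members and 14 genes in all were called. Without a library, the lone one of its group is assumed to vary like the other groups.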
